A study of Mus musculus with 83 samples.

Results

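The let-7 and miR-99/125 families are 10 microRNA (miRNA) genes, Mirlet7b, Mirlet7d, Mirlet7e, Mirlet7g, Mirlet7i, Mir98, Mir99a, Mir99b, Mir100 and Mir125a, of the 1577 miRNA features and 32101 features in the deposited table. Of these, 8 were found by their own name, and Mirlet7e and Mir100 by the position of their hairpin, since their features carry clone-based names. The members were picked from these families, as miRNAs linked to differentiation and held low in embryonic stem cells (ESCs). No rule on their values was used, but earlier results of these data were known. A further 8 related copies of the same families are not among them. Small RNA of mouse cells was sequenced to ask what happens to small RNAs when DNA methylation is lost. The 36 time course libraries came from ESCs labelled E14, whereas the study's methods name the strain of the Dnmt1 loxP/loxP ESCs as C57BL/6, with conditional alleles of Dnmt1, the maintenance DNA methyltransferase, which Cre deletes after tamoxifen. They hold control and Dnmt1 KO cells of days 1, 3, 6, 9, 11 and 25, with 3 libraries per genotype and day. A further 8 libraries hold RNA bound to AGO2, the Argonaute protein that carries miRNAs, from control and Dnmt1 KO ESCs with the same label (4 each), pulled down on day 9 after the deletion. Germline precursors, the primordial germ cells (PGCs), of C57BL/6 embryos, sorted for an Oct4-GFP transgene, gave 4 libraries of 1 female and 1 male sample each at E13.5 and E14.5. Whether the control ESCs received tamoxifen, and whether the ESCs were 1 clone or several, is not given in the sources used here.

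Let-7 miRNAs act late in development. In pluripotent cells the RNA-binding protein LIN28 holds back the maturation of let-7 precursors, so that their genes can be transcribed while little mature let-7 is made. As cells differentiate, LIN28 falls and mature let-7 represses growth and stem cell genes such as Lin28a, Hmga2 and Trim71. The miR-99/100 and miR-125 families often lie in the same transcripts as let-7 genes, but are not held back by LIN28 in the same way. A miRNA finds its targets mainly through its seed, bases 2 to 8 from the 5′ end.

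The mature sequences are shown because members of a family differ in only a few bases, and reads of 20 to 24 nt can be given to a member only where those bases differ. They are the 5p arms from RefSeq (GRCm38.p6), 5′ to 3′, with the seed in capitals; miR-10a, a relative of miR-99/100, is added for comparison.
let-7b: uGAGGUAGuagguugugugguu
let-7d: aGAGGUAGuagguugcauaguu
let-7e: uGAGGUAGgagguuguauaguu
let-7g: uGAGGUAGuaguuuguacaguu
let-7i: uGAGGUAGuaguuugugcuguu
miR-98: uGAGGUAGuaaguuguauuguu
miR-99a: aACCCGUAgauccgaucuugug
miR-99b: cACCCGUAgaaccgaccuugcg
miR-100: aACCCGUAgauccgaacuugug
miR-125a: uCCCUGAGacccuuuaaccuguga
miR-10a: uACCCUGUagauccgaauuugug

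The 10 sequences fall into 3 seed groups. The 6 let-7 members, miR-98 included, share the seed GAGGUAG, the 3 members of the miR-99/100 family share ACCCGUA, and miR-125a has CCCUGAG. miR-99a and miR-100 differ at 1 base, A16U from miR-100 to miR-99a with positions counted from the 5′ end. let-7g and let-7i differ at 2 bases, A17G and A19U from let-7g to let-7i. The seed of miR-10a, ACCCUGU, is not that of miR-99/100. All 10 mature sequences occur at 1 place each in the NCBIM37 genome, whereas those of the relatives let-7a, let-7c, let-7f and miR-125b occur at 2 places, so that a read of these relatives cannot be assigned to 1 gene.

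The genes lie in clusters that mix the families (NCBIM37 coordinates). Mir99b (chr17:17967152-17967221, + strand), Mirlet7e (chr17:17967307-17967423) and Mir125a (chr17:17967767-17967851, + strand) stand next to each other on chromosome 17, and Mir125a overlaps the gene Ncrna00085. The feature used for Mirlet7e is annotated on the − strand although its hairpin lies on the + strand, and whether strand was used in the authors' counting is not stated. Mir100 (chr9:41339508-41339587, + strand) lies inside the lincRNA D230004N17Rik beside Mirlet7a-2 and Mir125b-1, and Mir99a (chr16:77599181-77599245, + strand) lies inside Gm11146 beside Mirlet7c-1. Mirlet7g (chr9:106081171-106081258, + strand) lies within Wdr82 and Mir98 (chrX:148347757-148347864, + strand) within Huwe1 beside Mirlet7f-2. Mirlet7b (chr15:85537749-85537833, + strand) neighbours Mirlet7c-2, Mirlet7d (chr13:48631381-48631483, − strand) neighbours Mirlet7a-1 and Mirlet7f-1, and Mirlet7i (chr10:122422696-122422780, − strand) overlaps no other feature.

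Depth ran from 870481 to 6239009 reads per library on days 1 to 11 and from 521066 to 815523 reads on day 25. The AGO2 libraries held 11497718 to 25423038 reads in control and 1152390 to 11520133 in Dnmt1 KO, and the PGC libraries 1734576 to 3435993. Small RNA reads over the Dnmt1 feature overlapped between the genotypes within 18.1 to 95.0 RPM (reads per M reads of the library) and are not mRNA, so they do not check the deletion. Groups followed the sample titles, because the genotype tags contradict the titles of the AGO2 libraries and of others, and PGCs are tagged as ESCs. A second set of 30 time course libraries with the suffix R1 was not counted as replicates, because 28 of them were most like the unsuffixed library of their own number. The series' design text calls the replicates biological, but no label says that cultures were separate, so p-values measure the spread between these libraries. On the miRNAs that mark ESCs, the miR-290 and miR-302 clusters, the ESC libraries held 110780 to 139222 RPM summed over 12 features in Dnmt1 KO and 111105 to 128664 RPM in control on days 1 to 11. The 4 PGC libraries held 12189 to 24377 RPM on the same list. The labels and methods give no miRNA marker of germ cells to check them by.

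By level per length the members were not uniformly low in ESCs. In the control libraries of day 1, Mir99b stood at 43158 ± 5842 RPKM (mean ± SD, n = 3) and was rank 26 among the 1577 miRNA features, and Mir125a at 20198 ± 2468 RPKM was rank 34. Mirlet7i followed at 8664 RPKM and rank 58. The other members lay at ranks 121 to 221, from Mir100 at 1811 RPKM and Mirlet7g at 1460 RPKM through Mirlet7d at 1194, Mirlet7e at 930, Mir98 at 790 and Mirlet7b at 413 RPKM down to Mir99a at 182 RPKM. Of these neighbours, the libraries of Mir100 and Mirlet7g, and those of Mirlet7e and Mir98, overlapped. Together the 10 members made up 1.06 ± 0.0372% of all miRNA reads in control cells on day 1, and the 6 let-7 members 0.212 ± 0.00592%. Within the chromosome 17 cluster, Mirlet7e was at 0.0219 ± 0.0043 of the RPKM of Mir99b, and Mir125a at 0.476 ± 0.101, in the same libraries. All 10 members passed the filter on low values of the time course (at least 10 RPM in at least 3 libraries).

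**Figure D1:**
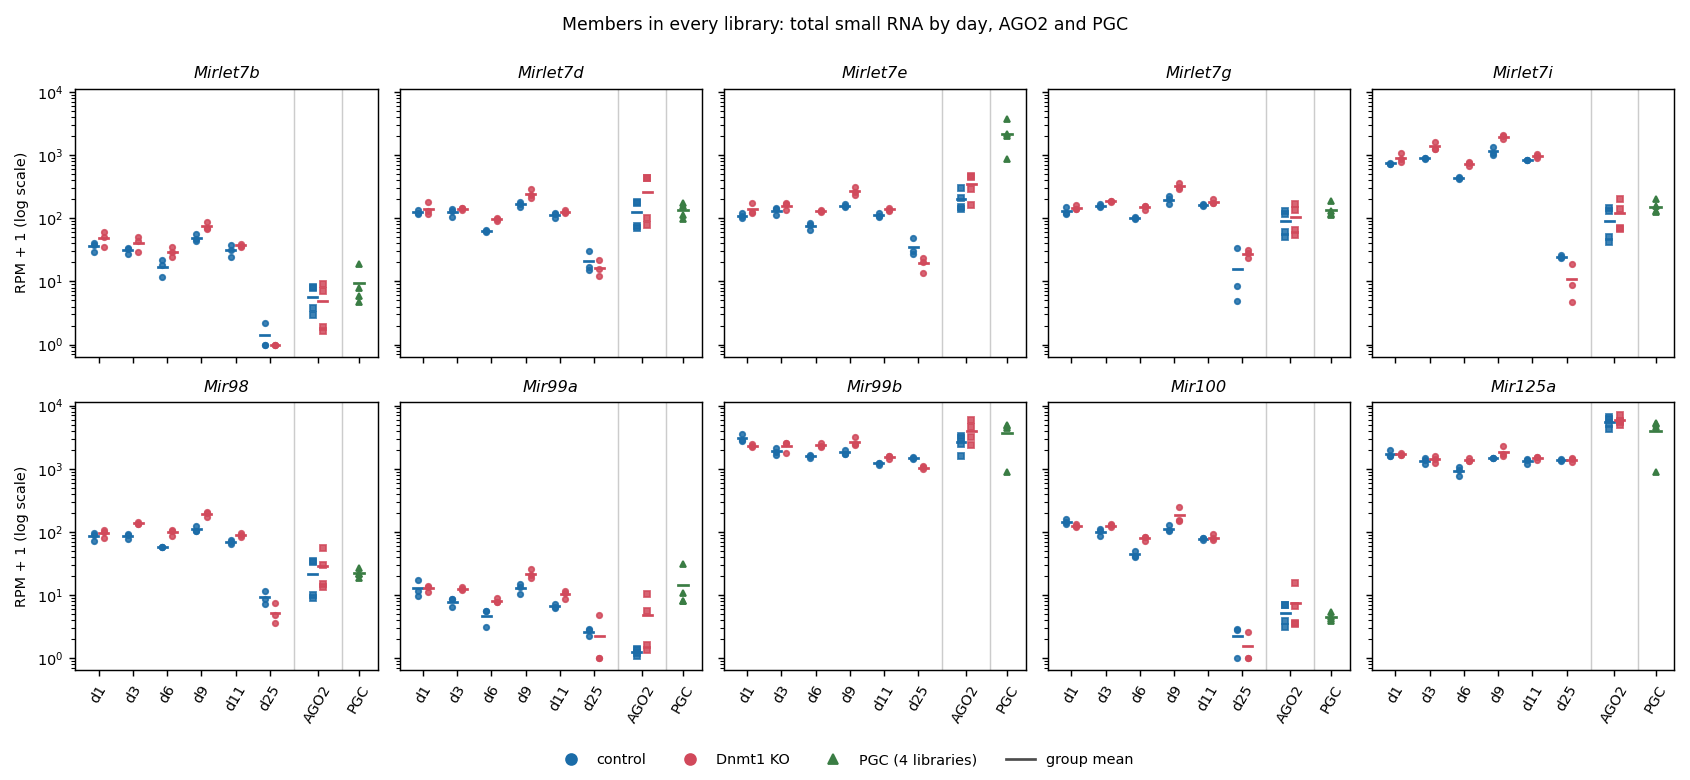
RPM + 1 on a log axis for each of the 10 members, 1 point per library, by day in control (blue) and Dnmt1 KO (red), in AGO2 libraries and in PGCs (green); bars are group means. On days 6 and 9 all red points lie above all blue points in each panel, and in control cells all points of day 25 lie below all points of day 1 in each panel.

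The first question was how the members respond to loss of Dnmt1, day by day. The members were higher together in Dnmt1 KO than in control on days 6 and 9: 8 of 10 were called higher on day 6 and 9 of 10 on day 9, and none lower (limma, adjusted p under 0.05 over the 2582 features tested). Among the miRNA features tested, 33.3% were called higher and 23.7% lower on day 6, 40.5% higher and 14.1% lower on day 9, and among all features 23% and 18.4% were called in either direction. The median log2 fold change of the 10 members was 0.64 on day 6 and 0.81 on day 9, beside 0.11 and 0.32 over the 291 miRNA features tested. Over all features tested the medians were 0.14 on day 6 and 0.09 on day 9. Each member had all its Dnmt1 KO libraries above all its control libraries on both days, which held for 47.5% of miRNA features on day 6 and 48.1% on day 9. Fold changes here are differences of log2(RPM + 1) after TMM scaling, so they understate the change of the rarest members. The direction of every member on days 6 and 9 was the same under each of the other scalings tried, but calls were lost: median-ratio factors left 4 on day 6, library totals left 5 on day 9, and testing with no filter on low values left 3 and 4. The number of calls rested on single libraries: on day 6 omitting Dnmt1 KO replicate 3 left 2 calls, omitting control replicate 2 left 3, omitting control replicate 3 left 4, and omitting Dnmt1 KO replicate 1 or 2 left 5, while on day 9 omitting Dnmt1 KO replicate 1 left 4.

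Mirlet7i, the most abundant let-7 member, held 450.1, 418 and 433 RPM in the 3 control libraries and 661, 768 and 753 RPM in the 3 Dnmt1 KO libraries on day 6. On day 9 it held 1358, 1015 and 1074 RPM in the 3 control libraries and 2006, 1777 and 2099 RPM in the 3 Dnmt1 KO libraries. The groups were apart on both days, with a log2 fold change of 0.64 ± 0.20 (SE) on day 6 (limma, adjusted p = 0.019) and 0.90 ± 0.20 on day 9 (adjusted p = 0.00105). Mir98, the let-7 family member inside Huwe1, held 57.1, 57.4 and 56.7 RPM in the 3 control libraries and 84.3, 101 and 107 RPM in the 3 Dnmt1 KO libraries on day 6 and 124, 104 and 104 RPM in the 3 control libraries and 195, 171 and 208 RPM in the 3 Dnmt1 KO libraries on day 9. Its difference was close to that of Mirlet7i, at 0.65 ± 0.18 on day 6 (limma, adjusted p = 0.00613) and 0.90 ± 0.18 on day 9 (adjusted p = 0.000196). Mirlet7d held 61.9, 58.6 and 65.2 RPM in the 3 control libraries and 90.3, 96.4 and 99.2 RPM in the 3 Dnmt1 KO libraries on day 6 and 179, 166 and 152 RPM in the 3 control libraries and 288, 231 and 207 RPM in the 3 Dnmt1 KO libraries on day 9. It was higher in Dnmt1 KO by 0.51 ± 0.17 on day 6 (limma, adjusted p = 0.029) and by 0.65 ± 0.17 on day 9 (adjusted p = 0.00595).

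Mirlet7b, the rarest of the let-7 members, held 20.4, 17.3 and 10.8 RPM in the 3 control libraries and 28.0, 23.7 and 33.8 RPM in the 3 Dnmt1 KO libraries on day 6. On day 9 it held 55.9, 45.2 and 42.0 RPM in the 3 control libraries and 85.6, 69.7 and 67.2 RPM in the 3 Dnmt1 KO libraries. Its differences of 0.71 ± 0.25 (limma, adjusted p = 0.0378) and 0.74 ± 0.25 (adjusted p = 0.0346) passed the threshold on both days. Mirlet7g held 105, 95.3 and 99.7 RPM in the 3 control libraries and 134, 157 and 155 RPM in the 3 Dnmt1 KO libraries on day 6 and 224, 165 and 198 RPM in the 3 control libraries and 355, 291 and 315 RPM in the 3 Dnmt1 KO libraries on day 9. Although its groups did not overlap on either day, it was called on day 9 alone, at 0.83 ± 0.30 (limma, adjusted p = 0.0473), with 0.46 ± 0.30 on day 6 (adjusted p = 0.287). The difference between its effects on these days was not tested. Its standard error, shared over all days in the fit, includes the wide spread of its few reads on day 25.

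In the chromosome 17 cluster, Mirlet7e held 84.5, 76.4 and 63.5 RPM in the 3 control libraries and 131, 126 and 135 RPM in the 3 Dnmt1 KO libraries on day 6 and 165, 155 and 149.7 RPM in the 3 control libraries and 314, 229 and 257 RPM in the 3 Dnmt1 KO libraries on day 9. Its log2 fold change was 0.70 ± 0.18 on day 6 (limma, adjusted p = 0.00368) and 0.87 ± 0.18 on day 9 (adjusted p = 0.000423). Mir99b held 1627, 1568 and 1503 RPM in the 3 control libraries and 2548, 2294 and 2229 RPM in the 3 Dnmt1 KO libraries on day 6 and 1988, 1729 and 1707 RPM in the 3 control libraries and 3221, 2473 and 2364 RPM in the 3 Dnmt1 KO libraries on day 9. The difference was 0.48 ± 0.12 on day 6 (limma, adjusted p = 0.0031) and 0.68 ± 0.12 on day 9 (adjusted p = 5.09e-05). Mir125a held 1053, 766 and 939 RPM in the 3 control libraries and 1326, 1301 and 1462 RPM in the 3 Dnmt1 KO libraries on day 6 and 1494, 1494 and 1469.9 RPM in the 3 control libraries and 2301, 1696 and 1583 RPM in the 3 Dnmt1 KO libraries on day 9. At 0.47 ± 0.12 (limma, adjusted p = 0.00235) and 0.42 ± 0.12 (adjusted p = 0.00846) it had the smallest value of the 10 members on day 9. Summed over the 3 genes, the cluster rose from 2559.8 ± 184 RPM to 3851 ± 144 RPM on day 6 (mean ± SD, n = 3 each), and the 7 members outside it from 716 ± 20.3 to 1182 ± 92.5 RPM.

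The other miR-99/100 genes were rarer. Mir100 held 39.1, 49.5 and 40.2 RPM in the 3 control libraries and 71.3, 80.6 and 80.8 RPM in the 3 Dnmt1 KO libraries on day 6 and 125, 102 and 108 RPM in the 3 control libraries and 246, 150.2 and 151 RPM in the 3 Dnmt1 KO libraries on day 9. Its log2 fold changes of 0.74 ± 0.26 (limma, adjusted p = 0.0344) and 0.79 ± 0.26 (adjusted p = 0.0291) were among the calls. Mir99a, the rarest member, held 4.58, 2.06 and 4.53 RPM in the 3 control libraries and 6.67, 7.90 and 6.82 RPM in the 3 Dnmt1 KO libraries on day 6 and 13.8, 9.35 and 12.2 RPM in the 3 control libraries and 24.7, 17.8 and 19.4 RPM in the 3 Dnmt1 KO libraries on day 9. Its groups were apart on both days, but its differences of 0.75 ± 0.35 (limma, adjusted p = 0.124) and 0.88 ± 0.35 (adjusted p = 0.0804) did not pass. It rested on as few as 5 reads in a library of days 1 to 11.

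**Figure D2:**
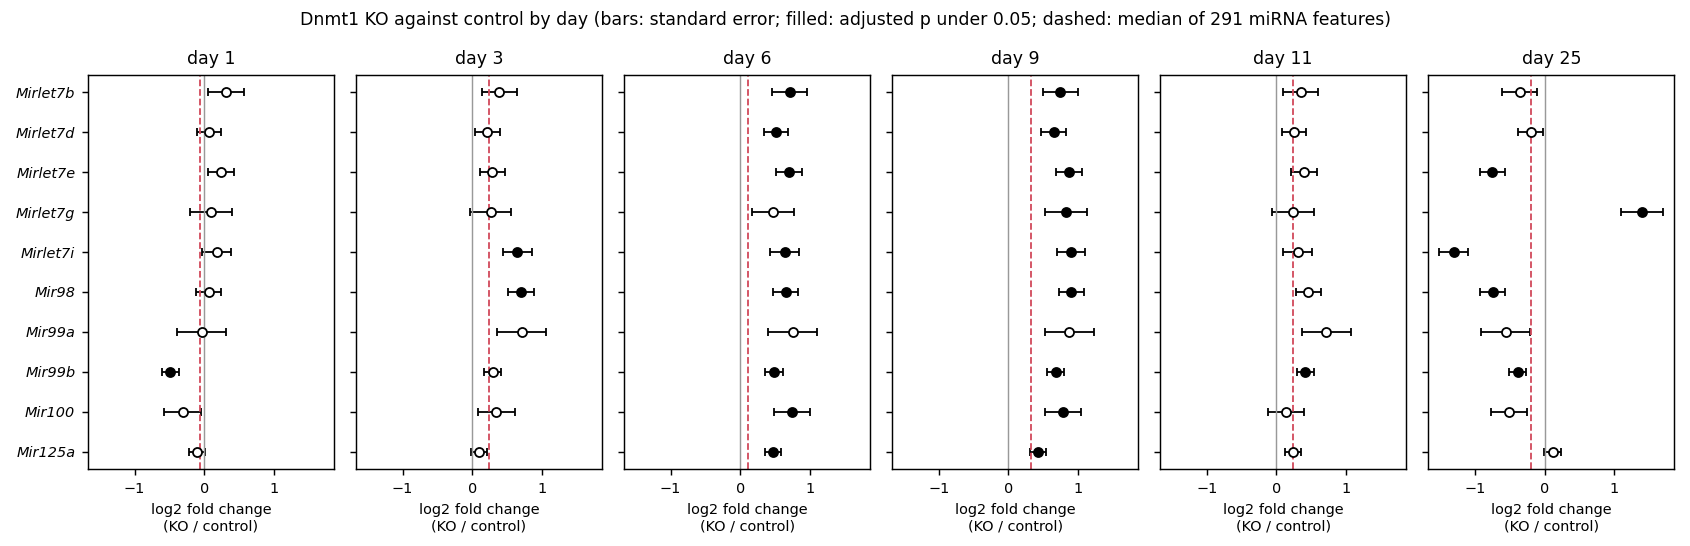
log2 fold change of Dnmt1 KO against control by day for the 10 members (points, ± SE; filled where adjusted p is under 0.05), with the median of the 291 miRNA features tested as a dashed line. All 10 points are above 0 on days 3, 6, 9 and 11, and 8 and 9 of them are filled on days 6 and 9.

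On the other days of the first 11 the response was smaller. On day 1, Mir99b was the single member called, and it was lower: 2759, 2812 and 3492 RPM in the control libraries against 2174, 2258 and 2428 RPM in the Dnmt1 KO libraries, a log2 fold change of -0.48 ± 0.12 (limma, adjusted p = 0.0172). Of the miRNA features tested, 2.75% were called lower and 2.06% higher on that day, and 3.8% of all features. Without Dnmt1 KO replicate 1 or 2, or without control replicate 3, it was not called. On day 3, Mirlet7i (891, 861 and 904 RPM in control libraries, 1616, 1258 and 1260.1 RPM in Dnmt1 KO libraries) and Mir98 (87.8, 90.5 and 75.9 and 142, 134 and 132 RPM) were called higher. Their differences were 0.65 ± 0.20 (limma, adjusted p = 0.0498) and 0.70 ± 0.18 (adjusted p = 0.0111), beside 23% of miRNA features called higher, 4.47% called lower and 6.24% of all features called. Leaving out any 1 of the 6 libraries of day 3 left 1 member called, or none without control replicate 3. Dnmt1 KO replicate 1 of day 3, with 1616 RPM of Mirlet7i, stood apart from replicates 2 and 3. Its mean chi-square per miRNA feature was 146 and 149 against them, beside 9.97 between replicates 2 and 3. On day 11, Mir99b alone was called, at 0.42 ± 0.12 (limma, adjusted p = 0.0241), with 31.6% of miRNA features called higher, 4.12% lower and 8.64% of all features called. The other 9 members ranged from 0.14 to 0.72 on day 11, and no member was called without Dnmt1 KO replicate 1 or 2 or without control replicate 1 or 3. All Dnmt1 KO libraries lay above all control libraries for 5 members on day 3 and 7 on day 11, beside 38.2% and 46.4% of miRNA features.

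Averaged over the 6 days with equal weights, 9 members were called higher, with log2 fold changes from 0.17 (Mir99b) to 0.55 (Mirlet7g), and Mir100 at 0.20 ± 0.11 was not (limma, adjusted p = 0.179). Of the miRNA features, 45% were called higher and 26.5% lower in that average, and of all features 26.7% were called. The average includes day 25, where Mirlet7g stood apart from the other members, as described below.

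Mir99b went from lower in Dnmt1 KO on day 1 to higher on day 11, the largest change among the 10 members. In control cells it fell from 2759, 2812 and 3492 RPM on day 1 to 1226, 1246 and 1163 RPM on day 11, by 1.32 ± 0.12 on the log2 scale (limma, adjusted p = 2.59e-11). In Dnmt1 KO cells it went from 2174, 2258 and 2428 RPM to 1570.3, 1589 and 1426 RPM, and fell by 0.42 ± 0.12 (adjusted p = 0.00817). The change of the genotype effect from day 1 to day 11 was 0.90 ± 0.18 (adjusted p = 0.000237), and it was the only 1 of the 10 called in that test, beside 28.5% of miRNA features called higher, 2.41% lower and 9.02% of all features. Mir125a, its neighbour, had 0.34 ± 0.17 in the same test (adjusted p = 0.26). In control cells the median log2 fold change from day 1 to day 11 was -0.28 over the members and -0.33 over the miRNA features tested. There 4 members were called lower, near the share of 39.2% of miRNA features, with 10.3% called higher and 34.9% of all features called. These were Mir99b, Mir100 at -0.91 ± 0.26 (adjusted p = 0.00528), Mir99a at -0.93 ± 0.35 (adjusted p = 0.036) and Mir125a at -0.37 ± 0.12 (adjusted p = 0.0119), while no let-7 member was called. Without control replicate 2 of day 1 or control replicate 1 of day 11, 2 were called. In Dnmt1 KO cells Mir99b alone was lower on day 11 than on day 1, beside 21.3% of miRNA features called lower, 29.9% higher and 28.2% of all features called, and it was not called without Dnmt1 KO replicate 3 of day 11. As Mir99b fell in the controls, Mir125a went from 0.476 ± 0.101 to 0.910 ± 0.0896 of its RPKM between days 1 and 11.

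The second question was how the members differ in the controls from day to day, which is the background of the genotype effects. The control mean of every member was lower on day 6 than on days 3 and 9. Mirlet7i, for example, stood at 10417, 5104 and 13517 RPKM on days 3, 6 and 9. Mir99b moved less, at 26928, 22371 and 25828 RPKM. In Dnmt1 KO cells the mean was also lower on day 6 than on days 3 and 9 for every member but Mir99b. There Mirlet7i stood at 16212, 8554 and 23070 RPKM, and Mir99b at 32884, 33671 and 38372 RPKM. These steps between days were not tested. On day 25 all 10 members were lower in control cells than on day 1, beside 55.3% of miRNA features called lower, 13.4% higher and 50.9% of all features called. The median log2 fold change of the members was -3.07, and that of the miRNA features tested was -0.57. The difference was unequal. Mir100 and Mirlet7b were nearly absent on day 25 and Mirlet7i was 31.8-fold lower in pooled reads, whereas Mir99b was 1.96-fold and Mir125a 1.29-fold lower. All control libraries of day 25 lay below all control libraries of day 1 for each of the 10, which held for 47.3% of miRNA features. Of the 12 ESC miRNAs, 7 were called higher and 1 lower in the same comparison, and their sum ranged from 116832 to 123978 RPM on day 1 and from 176156 to 209785 RPM on day 25.

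Mirlet7i went from 733, 745 and 731 RPM on day 1 to 23.3, 24.9 and 22.1 RPM on day 25 in the 3 control libraries. It fell by 5.04 ± 0.20 on the log2 scale (limma, adjusted p = 4.92e-23), and pooled over libraries 44 reads on day 25 stood against 3833 on day 1, 31.8-fold lower in RPM (95% counting interval 23.6 to 43.8). Mir100 went from 133, 142 and 159.7 RPM to 1.79, 1.92 and 0 RPM. With 2 reads in all on day 25 against 734 on day 1, it was 134-fold lower with an interval of 36.9 to 1108, which covers counting error only. Mirlet7b, at 0, 0 and 1.23 RPM on day 25, had 1 read against 191, and was 69.7-fold lower (12.4 to 2766). In Dnmt1 KO cells Mirlet7b had 0 reads on day 25 against 533 on day 11. Mir98 with 15 reads, Mirlet7g with 26 and Mir99a with 3 were 10.7-fold, 8.98-fold and 6.81-fold (2.21 to 34.01) lower in control cells on day 25 than on day 1. Mirlet7d and Mirlet7e were 6.61-fold and 3.32-fold lower. The fitted value of Mirlet7g, -3.66, became -4.46 without control replicate 1 of day 25 and -3.06 without control replicate 2. At this depth the fitted log2 differences of Mir100, Mirlet7b and Mir99a depend on the 1 RPM added before the log.

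The 2 abundant cluster members behaved otherwise. Mir99b held 1406, 1474 and 1543 RPM on day 25 and Mir125a 1389, 1407 and 1321 RPM, -1.16 ± 0.12 and -0.45 ± 0.12 against day 1 on the log2 scale (limma, adjusted p = 2.15e-10 and 0.00144). Mir99b on day 25 lay above its control libraries of day 11, and Mir125a overlapped them. Mirlet7e, between them in the genome, held 48.4, 28.8 and 25.8 RPM, and its RPKM was 0.0141 ± 0.0057 of that of Mir99b, after 0.0219 ± 0.0043 on day 1 and 0.0519 ± 0.002 on day 9. By level per length the order on day 25 was Mir99b at 21057 RPKM (rank 34), Mir125a at 16144 RPKM (rank 36) and then, at ranks from 157 on, Mirlet7e at 293 and Mirlet7i at 276 RPKM with overlapping libraries.

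Between genotypes on day 25 the members no longer moved together: 1 was called higher and 4 lower, beside 32% and 37.8% of miRNA features and 35% of all features called. Their median log2 fold change was -0.45, against -0.20 over the miRNA features tested. Of the 12 ESC miRNAs, 9 were called lower in the same comparison and none higher (median -0.55), with sums of 136659 to 141633 RPM in Dnmt1 KO and 176156 to 209785 RPM in control, and their part was not tested. Mirlet7i was lower, with 23.3, 24.9 and 22.1 RPM in the 3 control libraries and 17.7, 7.68 and 3.79 RPM in the 3 Dnmt1 KO libraries, at -1.30 ± 0.20 (limma, adjusted p = 2.71e-06). Mirlet7e held 48.4, 28.8 and 25.8 RPM in the 3 control libraries and 19.3, 12.8 and 22.7 RPM in the 3 Dnmt1 KO libraries, at -0.75 ± 0.18 (adjusted p = 0.00133), and Mir99b 1406, 1474 and 1543 RPM in the 3 control libraries and 1088, 1049 and 995 RPM in the 3 Dnmt1 KO libraries, at -0.39 ± 0.12 (adjusted p = 0.0133). For these 3 members all Dnmt1 KO libraries lay below all control libraries, as for 42.7% of miRNA features. Mir98, at -0.74 ± 0.18 (adjusted p = 0.00119), rested on 8 against 15 pooled reads, whose counting interval for the fold decrease, 0.76 to 5.20, spans no change. Mirlet7g was called higher at 1.40 ± 0.30 (adjusted p = 0.000289), but its libraries overlapped, with 32.3, 3.84 and 7.36 RPM in the 3 control libraries and 22.5, 26.9 and 30.3 RPM in the 3 Dnmt1 KO libraries. Omitting control replicate 1 gave 2.18, and omitting control replicate 2 gave 0.78. Mir99a, not called at -0.56 ± 0.35 on 3 reads per genotype, was -1.34 (adjusted p = 0.000255) without Dnmt1 KO replicate 2, the only Dnmt1 KO library with reads of it on that day. With each sample's own read noise modelled in voom, Mirlet7g alone was called on day 25, and with day 25 fitted alone, Mir99b alone.

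**Figure D3:**
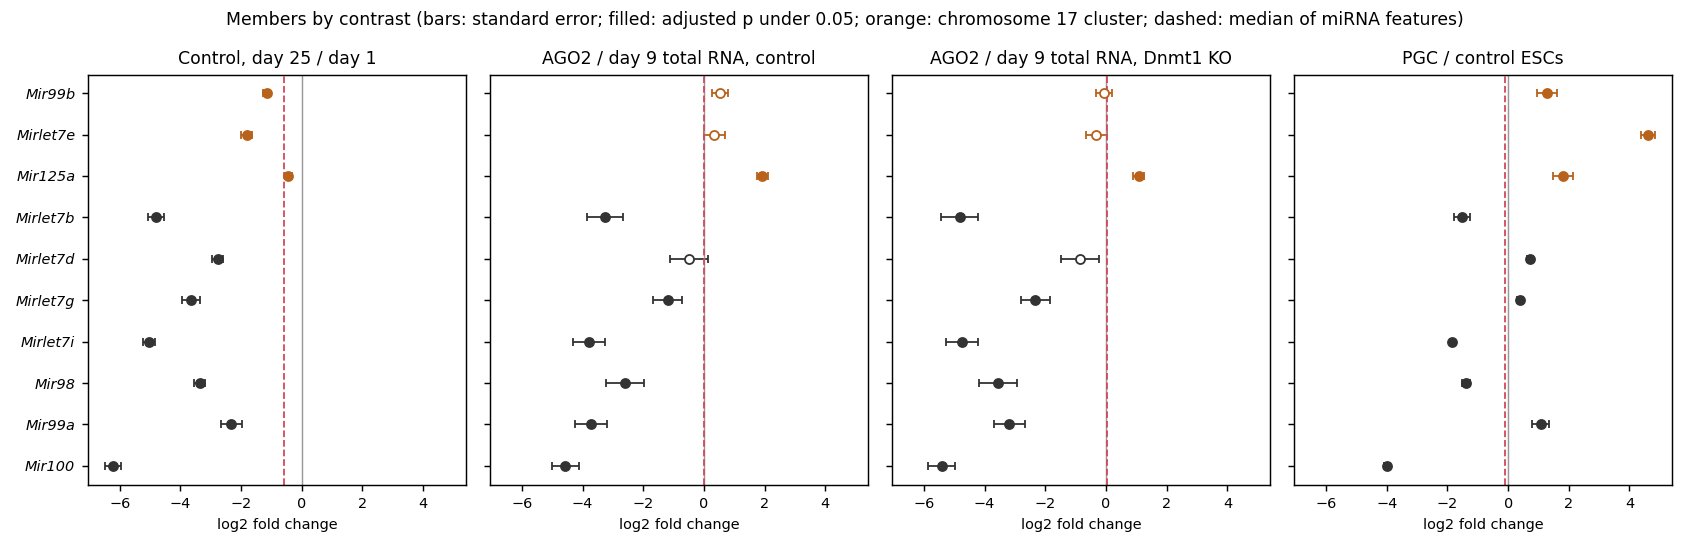
log2 fold change ± SE of the 10 members in 4 comparisons, with the 3 chromosome 17 cluster members in orange: control day 25 against day 1, AGO2-bound against total RNA of day 9 in control and in Dnmt1 KO, and PGCs against control ESCs. Mir125a is the highest member in both AGO2 panels and Mirlet7e in PGCs, at 4.61.

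The miRNAs whose levels followed the members most closely were named by rule, as the 5 with the highest Pearson r between log2(RPM + 1) and the mean standardized level of the members, among 278 other miRNA features. Over the 36 libraries these were Mir29a (r = 0.975), Mir10a (0.9745), Mir221 (0.973), Mir214 (0.961) and Mir143 (0.961). Day 25 stands apart in all of them, and over the 30 libraries of days 1 to 11 the values were 0.945, 0.9335, 0.939, 0.956 and 0.884. The highest 5 over those 30 libraries were Mir214, Mir222 (0.954), Mir615 (0.949), Mir29a and Mir221, with Mir10a in place 6 and Mir143 in place 12. The libraries share days, genotypes and controls, so these values are descriptions. Among the members themselves, r over the 36 libraries ran from 0.337 between Mirlet7i and Mir125a to 0.987 between Mirlet7i and Mir98. Over the 30 libraries of days 1 to 11, Mirlet7i and Mir125a were at 0.667. The pairs there ran from 0.297 between Mirlet7g and Mir99b to 0.936 between Mirlet7g and Mirlet7i.

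Mir143 and Mir214 are also on the list of fibroblast and mesenchyme miRNAs (Mir143, Mir145, Mir21, Mir214 and Mir199a-2 tested, 6 of 7 listed in the table). This list moved with the members. It summed to 14591 to 29195 RPM in the control libraries of days 1 to 11 and 19152 to 48042 RPM in those of Dnmt1 KO, and to 6923 to 10081 RPM in the 6 libraries of day 25. In Dnmt1 KO against control, 4 of the 5 were called higher on day 3, 4 on day 6 and 4 on day 9, 3 on day 11 and none on day 1, with medians of 0.67, 0.52, 0.86, 0.43 and 0.02. On day 9 Mir143 was higher by 0.95 ± 0.10 (limma, adjusted p = 1.13e-09) and Mir21 by 0.98 ± 0.11 (adjusted p = 1.48e-09), beside 0.42 to 0.90 for the members. In control cells on day 25 against day 1 all 5 were lower, with Mir143 at -3.48 ± 0.10 (adjusted p = 1.26e-27) and Mir214 at -6.66 ± 0.23 (adjusted p = 2.61e-25), but Mir21 at -0.31 ± 0.11 (adjusted p = 0.0144). Between genotypes on day 25, Mir143, Mir214 and Mir199a-2 were called higher and Mir21 and Mir145 lower, where 4 members were lower. Of the 5, Mir199a-2 was at 0 in all 3 control libraries of day 25 and Mir214 was at 0 in 2 of them, with a mean of 0.598 RPM, so that their calls on that day rest on almost no reads, whereas Mir21 held 7991 to 9095 RPM there. The study's methods say that ESCs were grown with or without feeder cells, which are fibroblasts; which cultures had them is not given in the sources used here. The part of such cells in the members' values was not tested, and in bulk RNA fewer cells of a type and less RNA per cell cannot be told apart.

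**Figure D4:**
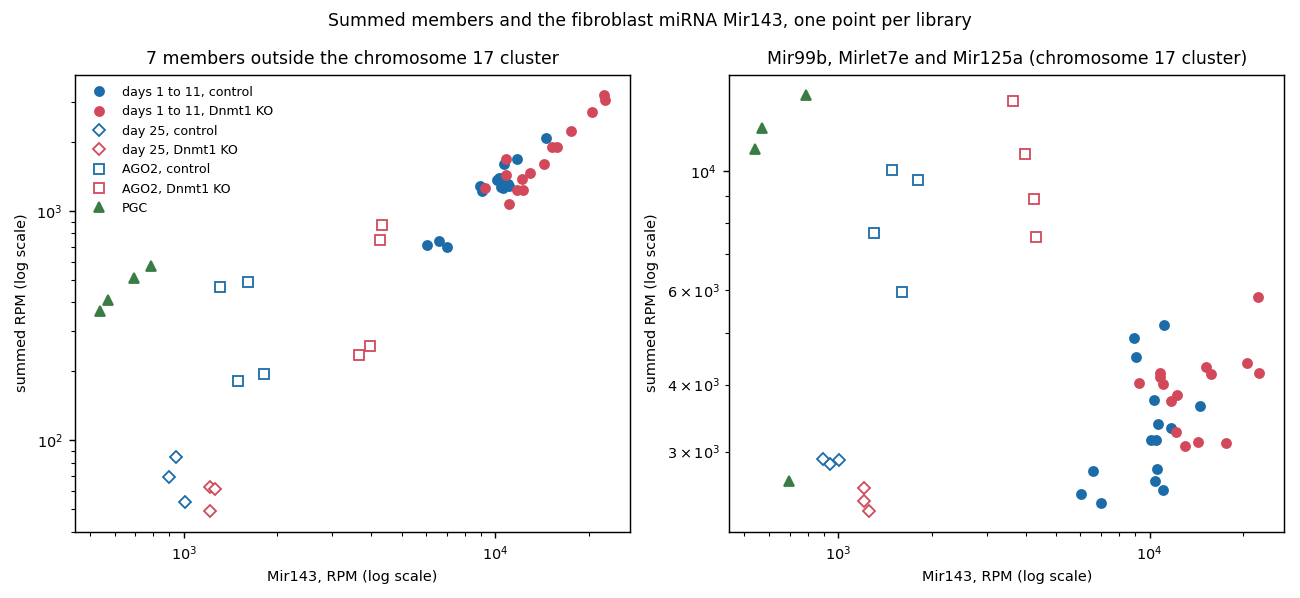
Summed RPM of the 7 members outside the chromosome 17 cluster (left) and of its 3 members (right) against the RPM of Mir143, a fibroblast-enriched miRNA, 1 point per library, log axes. In the ESC libraries the 7 members run from 49.3 RPM on day 25 to 3199.9 RPM in Dnmt1 KO on day 9 in total RNA, while the cluster stays between 2327 and 5836 RPM in total RNA of ESCs.

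Of the other lists, miRNAs of neurons summed to at most 11.4 RPM in a library of the main comparisons, those of muscle to 0.678 RPM and those of liver to 0.359 RPM. On the blood list Mir142 alone was tested, and in Dnmt1 KO it was higher by 0.51 ± 0.16 on day 6, 1.44 ± 0.16 on day 9 and 1.63 ± 0.16 on day 11 (limma, adjusted p = 0.0174, 2.12e-09 and 8.67e-11). Its part was not tested either.

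Of 8 related copies of let-7a, let-7c, let-7f and miR-125b, whose 5p sequences occur at 2 places, 3 passed the filter. Of these, 2 were called higher on days 6 and 9. Mir125b-1, in the same lincRNA as Mir100, went from 62.7 ± 9.90 to 168 ± 23.5 RPM on day 6 (mean ± SD, n = 3 each), a log2 fold change of 1.31 ± 0.19 (limma, adjusted p = 5.67e-07). Mirlet7f-2, next to Mir98, was higher by 0.80 ± 0.20 on day 6 (adjusted p = 0.00217). Mir125b-2 was called between genotypes on no day, with 0.21 ± 0.38 on day 6 and 0.78 ± 0.38 on day 9 (adjusted p = 0.747 and 0.164). The miR-10 relatives of miR-99/100 were also higher in Dnmt1 KO, with Mir10a at 0.85 ± 0.12 (adjusted p = 6.93e-07) and Mir10b at 0.98 ± 0.15 (adjusted p = 1.51e-06) on day 9. As for Mir99b, their genotype effect changed from day 1 to day 11, by 0.72 ± 0.17 and 0.79 ± 0.21 (adjusted p = 0.00333 and 0.00877).

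For the LIN28 and let-7 pathway, 11 of 12 listed genes were in the table and 8 were tested. Their small RNA reads are fragments, not mRNA levels, and summed to no more than 172 RPM in a time course library. Lin28a, which blocks let-7 maturation, was not called between genotypes on any day. Its reads were lower on day 11 than on day 1 in control (-0.94 ± 0.32, limma, adjusted p = 0.0178) and in Dnmt1 KO (-1.23 ± 0.32, adjusted p = 0.00244). Trim71, a let-7 target, was higher in Dnmt1 KO on day 6 (0.89 ± 0.21, adjusted p = 0.00134) and day 9 (0.64 ± 0.21, adjusted p = 0.0285), and Dgcr8, of the Microprocessor, was lower on day 6 (-0.80 ± 0.23, adjusted p = 0.00862). On days 6 and 9 together no other gene of the list was called between genotypes. In control cells on day 25 against day 1, 2 of the 8 were called higher and 0 lower, with a median of 0.21. Of all features, 50.9% were called in either direction there.

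The third question was which members are bound by AGO2, and whether Dnmt1 loss changes that. Mir125a was the member most abundant in AGO2, and Mirlet7i, Mir100, Mir99a, Mirlet7b and Mir98 were far scarcer there than in total RNA. In both genotypes Mir125a was higher in AGO2 than in total RNA of day 9 and 6 members were lower: Mirlet7b, Mirlet7g, Mirlet7i, Mir98, Mir99a and Mir100. Of the 310 miRNA features tested, 31.3% were higher and 36.5% lower in control, and 26.8% and 27.7% in Dnmt1 KO. The median over the members was -1.90 in control and -2.76 in Dnmt1 KO, beside -0.00 and 0.02 over the miRNA features. Pull-down and library preparation cannot be told apart here, and AGO2 control libraries were deeper than those of total RNA. The AGO2 libraries fell into subsets of replicates 1 and 2 and of replicates 3 and 4, and the series' design text gives 2 biological replicates for some samples, so that n = 4 may overstate the independent samples behind the SDs and p-values here.

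In the 4 AGO2 control libraries Mir125a held 6208, 6603, 5094 and 4196 RPM, beside 1494, 1494 and 1469.9 RPM in the 3 total RNA libraries of day 9. It was higher by 1.93 ± 0.18 on the log2 scale in control (limma, adjusted p = 5.43e-07) and by 1.08 ± 0.18 in Dnmt1 KO (adjusted p = 0.000178). Mir99b held 3115, 3251, 2436 and 1610.1 RPM in AGO2 control, and its difference of 0.53 ± 0.27 did not pass (adjusted p = 0.0982) and was -0.29 when scaled by library totals. Mir125a thus stood at 1.80 ± 0.236 of the RPKM of Mir99b in AGO2 control (n = 4) and 1.27 ± 0.310 in AGO2 Dnmt1 KO, where it was 0.680 ± 0.0529 and 0.568 ± 0.0186 in total RNA of day 9. The lowest AGO2 control library, at 1.64, was above the highest total RNA library, at 0.712. Mirlet7e, with 305, 207, 149.7 and 141 RPM, differed from total RNA by 0.34 ± 0.35 (adjusted p = 0.412) and by -0.48 with library totals.

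Mirlet7i held 49.8, 40.8, 127 and 147 RPM in AGO2 control, against 1358, 1015 and 1074 RPM in total RNA of day 9. It was lower by 3.79 ± 0.52 on the log2 scale (a log2 fold change of -3.79; limma, adjusted p = 2.23e-05), and -4.75 ± 0.52 in Dnmt1 KO (adjusted p = 4.11e-06). Mir100 held 6.06, 5.91, 2.86 and 2.16 RPM, against 125, 102 and 108 RPM. At -4.56 ± 0.45 (adjusted p = 9.63e-07) it had the lowest value of the 10. Mirlet7g, closest in sequence to Mirlet7i among the members, held 59.0, 49.5, 116 and 128 RPM and differed by -1.19 ± 0.47 (adjusted p = 0.0365), and Mirlet7d with 68.5, 75.7, 179.8 and 172 RPM by -0.50 ± 0.63 (adjusted p = 0.505). Fibroblast miRNAs were lower in AGO2 too, 4 of 5 in control and 5 of 5 in Dnmt1 KO, with Mir143 at -2.93 ± 0.15 in control (adjusted p = 2.65e-09) and summed levels of 6193 to 14776 RPM. Their part was not tested.

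Between genotypes among AGO2 libraries, none of the 7 members tested was called, at the adjusted threshold or at an unadjusted p under 0.05 (limma), beside 31.8% of miRNA features called higher, 12.9% lower and 36.4% of all features called. Mirlet7b, Mir99a and Mir100 did not pass the filter. Replicates 1 and 2 differed from 3 and 4. Mirlet7d, for example, held 68.5, 75.7, 179.8 and 172 RPM in the control and 76.4, 99.1, 439 and 432 RPM in the Dnmt1 KO libraries. The difference of Mirlet7d, 0.53 ± 0.68 (adjusted p = 0.599) and that of Mirlet7e, 0.47 ± 0.37 (adjusted p = 0.374), have wide errors, and both change sign under scaling by TMM factors from all features. Mir125a held 7179, 5761, 5476 and 4846 RPM in AGO2 Dnmt1 KO and differed by -0.18 ± 0.17 (adjusted p = 0.47), or by 0.08 with library totals, -0.68 with median-ratio factors and -1.09 with TMM factors from all features, the last 2 of which call it lower. The median over all features was 0.10 as scaled here, and 0.34, -0.39 and -0.78 with those scalings. The fibroblast list summed to 14758 to 29771 RPM in AGO2 Dnmt1 KO, and Mir143 was higher there by 1.13 ± 0.15 (adjusted p = 0.000254).

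The last question was how germ cells compare. Mirlet7e was far higher in all 4 PGC libraries than in ESCs, and Mir100, Mirlet7i and Mir98 were lower in all 4. In RPM the PGC libraries of Mirlet7d (95.2 to 170.2), Mirlet7g (110.9 to 185) and Mir99a (6.92 to 30.2) overlapped the control ESC libraries of days 1 to 11 (58.6 to 179, 95.3 to 224 and 2.06 to 16.1). Those of Mirlet7b (3.69 to 17.8) and Mir125a (891 to 5225) overlapped control ESC libraries of day 6. In the fit, which was scaled within miRNA features, all 10 members were called, 6 higher and 4 lower, against the 15 control ESC libraries of days 1 to 11, beside 40.1% of 314 miRNA features called higher and 44.9% lower. The median over the members was 0.56, against -0.11 over the miRNA features. With the 3 shallow suffixed PGC libraries included, 5 members were called, and Mirlet7g, Mirlet7d, Mir99a, Mir99b and Mir125a turned from higher to values of -1.96, -0.56, -0.46, -0.61 and -0.23, none of them called. Tissue of origin and cell type differ together between these groups and cannot be told apart, and whether strain differs as well is unclear, since labels and methods disagree on the ESCs. The 4 PGC libraries differ in sex and embryonic day, with 1 library each, and enter as 1 group. Their labels are in doubt, because the suffixed E14.5 male library was closest to the unsuffixed E13.5 male library (a mean chi-square of 4.275 per miRNA feature) and not to the unsuffixed E14.5 male library (75.8). The E13.5 female library stood apart from the others, and the E14.5 female and male libraries differed by little more than counting error over miRNA features (a mean chi-square of 1.40 per feature, and 4.125 over all features). Counting the E14.5 libraries as 1 sample left all 10 called.

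Mirlet7e held 874 RPM in the E13.5 female library, 3665 in E13.5 male, 2003 in E14.5 female and 2178 in E14.5 male, against 119, 107 and 101 RPM in control ESCs of day 1. It was higher by 4.61 ± 0.23 on the log2 scale (limma, adjusted p = 1.98e-12), and by 5.19 without the E13.5 female library. Mir99b held 883, 4956, 4359 and 4750.4 RPM, and Mir125a 891, 5225, 4612 and 5128 RPM, in the same order. The E13.5 female library was below the control ESC libraries of days 1 to 11 for Mir99b and within their range for Mir125a, and the other 3 were above. The differences were 1.29 ± 0.33 and 1.80 ± 0.34 (adjusted p = 0.00154 and 9.44e-05), and 2.08 and 2.61 without the E13.5 female library.

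Within the cluster the proportions differed from those of ESCs. Mirlet7e stood at 0.592, 0.442, 0.275 and 0.274 of the RPKM of Mir99b in the 4 PGC libraries, and between 0.0219 and 0.0542 in the group means of control ESCs of days 1 to 11. Mir125a stood at 0.832 to 0.889 of Mir99b, within the range of control ESCs between days 1 and 11. The 3 cluster genes took 0.619% of miRNA reads in the E13.5 female library and 2.49% to 3.01% in the other 3, against 0.843 ± 0.0367% in control ESCs of day 1.

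**Figure D5:**
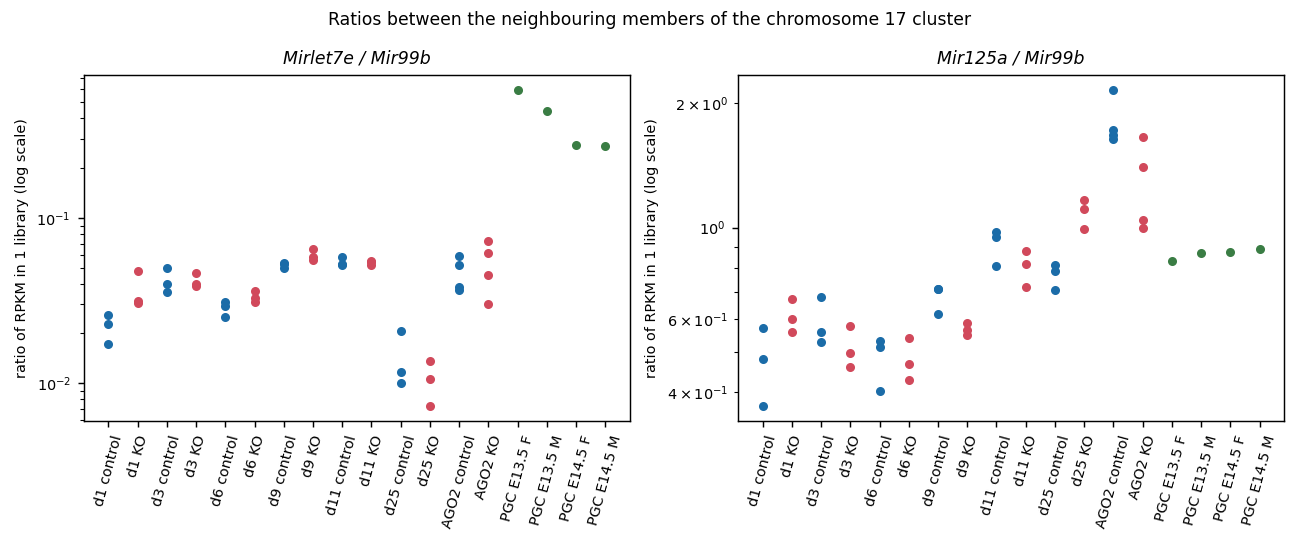
RPKM of Mirlet7e (left) and of Mir125a (right) divided by that of Mir99b in each library, log axes, by day, AGO2 and PGC group. PGC libraries lie at 0.274 to 0.592 for Mirlet7e, above every ESC library, and AGO2 libraries lie at 1.00 to 2.15 for Mir125a, where total RNA of ESCs reaches 1.17 (Dnmt1 KO, day 25).

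Mir100 went the other way, with 2.88 to 4.37 RPM in the 4 PGC libraries and 133, 142 and 159.7 RPM in control ESCs of day 1, at -4.00 ± 0.11 (limma, adjusted p = 6.53e-16). Mirlet7i held 153, 198, 129 and 125 RPM, at -1.85 ± 0.07 (adjusted p = 9.55e-14). Mir98 and Mirlet7b were lower as well, with log2 fold changes of -1.39 and -1.53 (adjusted p = 6.04e-09 and 4.54e-05), although Mirlet7b overlapped ESCs in RPM. Mirlet7d at 0.73 ± 0.09 and Mirlet7g at 0.38 ± 0.11 (adjusted p = 1.03e-06 and 0.00274) were called higher, but overlapped ESCs in RPM and turned negative with all 7 PGC libraries. Mir99a, at 1.08 ± 0.28 (adjusted p = 0.00162), held 30.2 RPM in the E13.5 female library and 6.92 to 9.74 RPM in the other 3. Mir10b, the miR-10 relative, was higher by 2.66 ± 0.22 and Mir10a was lower, at -2.81 ± 0.22 (adjusted p = 3.09e-09 and 1.66e-09). All 5 fibroblast miRNAs tested were lower in PGCs, with a median of -3.40 and 1735 to 2605 RPM in sum, as were all 12 ESC miRNAs.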

How the data were processed

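Per the labels and the study's methods, the authors trimmed reads (Trim Galore 0.3.5), mapped those of 20 to 24 nt to NCBIM37 (Bowtie2 2.2.9) and counted them per feature in SeqMonk; the versions come from the submitters' processing notes. The deposited values are RPKM of 83 libraries. RPM was RPKM × feature length / 1000, and in each library all low values tested were whole reads within 5% of the value of 1 read, which gave the depths. No count model was the main test. The recovered whole reads entered voom, run as an alternative on the time course, and the counting intervals. Features with at least 10 RPM in at least 3 libraries were scaled by TMM factors computed here (30% of log ratios and 5% of abundances trimmed) and tested as log2(RPM + 1) with limma 3.58.1 (trend) in R 4.3.3. The fits were the 36 time course libraries (2582 features), the 8 AGO2 libraries (456 features), and miRNA features for AGO2 against total RNA and for PGCs. P-values were Benjamini-Hochberg adjusted over all features of each of 15 comparisons and called under 0.05. Intervals cover counting error only, since reads without molecular identifiers are not independent molecules. The scripts were tested on simulated data. Replicate numbers did not pair the time course libraries (0 of 18 correlations of deviations over 0.1), but those of AGO2 did (4 of 4, from 0.194 to 0.386). All 10 members were described in every comparison; other miRNAs were named by the highest correlation with them. The members and lists were chosen with earlier results of these data known. R1-suffixed and "none" libraries entered no main comparison. Alternatives covered pseudocount, filter, scaling, voom, replicate block, sample sets and leaving out libraries.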

Additional observations from a re-analysis of the deposited data

Results flagged for a closer look

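Mir99b was flagged because its Dnmt1 KO effect differed between days, by 0.90 on the log2 scale from day 1 to day 11 in the limma test of the difference itself, given above.

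The libraries titled "none", 1 per genotype, entered no comparison, and the labels do not say what they hold. They are shallow, with 57155 reads in control and 9830 in Dnmt1 KO. Reads of 5 members lay above the 3 reads that a count of 0 allows in the control library: Mir125a with 201 reads, Mir99b with 124, Mirlet7e with 19, Mirlet7g with 4 and Mirlet7i with 4. In the Dnmt1 KO library Mir99b and Mir125a had 21 reads each. With 1 library per genotype there is no replicate check.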

How the results depend on the processing

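Of the called member values under alternatives other than leaving out 1 library, 579 of 685 kept their direction and side of the threshold, 69 lost the call, 32 gained it and 5 reversed. Counts of members called moved by over 1.5 times as follows; causes were not tested. With no filter on low values, where many more features share the adjustment, 0 were called on day 1, 0 on day 3, 3 on day 6, 4 on day 9, 0 on day 11, 4 over the mean of days, 1 for control day 11 against day 1 and 0 for Dnmt1 KO day 11 against day 1. With library totals 1 was called on day 3, 5 on day 9 and 0 on day 11. Median-ratio factors gave 4 on day 6 and 1 in AGO2. TMM factors from all features, an alternative chosen after seeing the data, gave 0 on day 1, 1 on day 3, 2 for control and 0 for Dnmt1 KO day 11 against day 1, and 1 in AGO2. A pseudocount of 0.5 gave 1 on day 3, and of 5 gave 2 on day 11 and 2 for Dnmt1 KO day 11 against day 1. With voom 5 were called on day 11, 1 on day 25 and 4 for Dnmt1 KO day 11 against day 1. Each day alone gave 7 on day 11 and 1 on day 25, miRNA features only gave 2 on day 11, and the R1-suffixed libraries gave 0 on days 1 and 11.

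With all 7 PGC libraries 5 members were called and 5 reversed: Mirlet7g at -1.96, Mirlet7d at -0.56, Mir99a at -0.46, Mir99b at -0.61 and Mir125a at -0.23. Suffixed PGC libraries were as shallow as 60317 reads. The mean over days 1 to 11 and the E14.5 libraries counted as 1 sample were also chosen after seeing the data, and called 10 members each.

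Each of 48 libraries was left out in turn, in every fit it enters. Between genotypes this gave 0 to 1 member called on day 1, 0 to 1 on day 3 and 2 to 6 on day 6. It gave 4 to 9 on day 9, 0 to 1 on day 11 and 5 to 7 on day 25. The mean had 6 to 9 and the change of effect 1. Against day 1, control day 11 had 2 to 4, control day 25 had 10 and Dnmt1 KO day 11 had 0 to 1. AGO2 between genotypes had 0, and PGCs had 10. AGO2 against total RNA had 6 to 8 in control and 7 in Dnmt1 KO.

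With the replicate block the counts were 1, 3, 7, 8, 1 and 6 on days 1, 3, 6, 9, 11 and 25, although the time course numbers were shared labels only (correlations from -0.066 to 0.047). In AGO2, where the numbers paired, the block called 0 and changed no call. The block could not be estimated for contrasts between days and was not run there. Depth limited day 25, where Mirlet7b, Mir100 and Mir99a had 0 to 3 reads per library.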
